A study of Rattus norvegicus with 40 samples.

Results

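The 10 genes described here encode clotting factors and regulators of clotting that the liver secretes into the blood: F2, F5, F7, F9, F10, F11, F12, Klkb1, Cpb2 and Serpinc1. They were taken by symbol in the annotation of the array. Of the 10, 8 had a probe set named for them, 1 each, among the 13438 genes tested, and F7 and F11 were not analysed here. The probe sets were 1368442_PM_at for F2, 1374320_PM_at for F5, 1380104_PM_at for F9, 1369852_PM_at for F10, 1391884_PM_at for F12, 1387323_PM_at for Klkb1, 1369206_PM_at for Cpb2 and 1392090_PM_at for Serpinc1. The expression values came from livers of adult male Sprague Dawley SD:CD rats in 4 groups of 10, each rat on 1 Affymetrix array. The groups received the vehicle alone, or a GW7647 dose of 0.1 mg/kg, 1 mg/kg or 10 mg/kg, once a day by gavage for 4 days, and the livers were collected 24 h after the final dose. GW7647 is a synthetic agonist of PPAR-alpha, the nuclear receptor that switches on fatty acid breakdown in liver. All groups shared sex, strain and dosing route, and the study covered 1 strain, males only, and whole pieces of liver, in which fewer cells of a type and less RNA per cell cannot be told apart.

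Blood clotting is a cascade in which each inactive protease is cut and activated by the one before it. The contact system starts with factor XII (F12) and plasma prekallikrein (Klkb1), which activate each other, and passes through factors XI (F11) and IX (F9). Factor VII (F7), activated with tissue factor, starts the other arm, and both arms activate factor X (F10), which with its cofactor factor V (F5) turns prothrombin (F2) into thrombin. Antithrombin (Serpinc1) blocks thrombin and activated factor X, and carboxypeptidase B2 (Cpb2), also called TAFI, slows the breakdown of the finished fibrin clot. Hepatocytes make nearly all of these proteins, and F2, F7, F9 and F10 also need carboxylation that depends on vitamin K before they work.

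Promoter sequences are shown for a pair of genes whose transcripts fell at 10 mg/kg and a pair whose transcripts did not fall on both of the scales used below, so that the letters can be set beside the response. Each is the 250 bases before the annotated start in RefSeq of the GRCr8 assembly, 5′ to 3′ on the gene's strand, for F9 at chrX:143388392-143388641 on the plus strand, Klkb1 at chr16:53690976-53691225 on the plus strand, F2 at chr3:98065247-98065496 on the minus strand and Serpinc1 at chr13:75790308-75790557 on the plus strand. Capitals mark letters that match, on either strand, the nuclear receptor core AGGTCA or the C/EBP motif TTGCNNAA, and no capitals overlap another motif.
F9: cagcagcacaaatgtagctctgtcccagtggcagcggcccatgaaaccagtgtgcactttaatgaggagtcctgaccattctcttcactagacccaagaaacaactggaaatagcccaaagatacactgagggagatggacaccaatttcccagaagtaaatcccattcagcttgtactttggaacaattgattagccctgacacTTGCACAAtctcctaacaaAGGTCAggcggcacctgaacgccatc
Klkb1: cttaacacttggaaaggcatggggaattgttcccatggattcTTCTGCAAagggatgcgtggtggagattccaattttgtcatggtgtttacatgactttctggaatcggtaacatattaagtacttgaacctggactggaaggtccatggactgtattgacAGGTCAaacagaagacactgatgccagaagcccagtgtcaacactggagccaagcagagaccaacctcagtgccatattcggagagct
F2: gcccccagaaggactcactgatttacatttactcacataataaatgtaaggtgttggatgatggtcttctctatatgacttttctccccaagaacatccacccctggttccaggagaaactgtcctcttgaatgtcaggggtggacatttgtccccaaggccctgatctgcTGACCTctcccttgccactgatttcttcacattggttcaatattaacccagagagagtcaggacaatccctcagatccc
Serpinc1: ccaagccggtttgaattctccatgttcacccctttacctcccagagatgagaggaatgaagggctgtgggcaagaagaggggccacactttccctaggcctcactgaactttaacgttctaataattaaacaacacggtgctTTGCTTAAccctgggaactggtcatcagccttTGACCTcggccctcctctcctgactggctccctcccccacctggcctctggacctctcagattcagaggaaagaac
The core AGGTCA was found before the start of all 4 of these genes, at 26 bases in F9, 88 in Klkb1, 79 in F2 and 76 in Serpinc1. It was also found in F7 and F10, which made 6 of the 9 genes with a promoter entry, against 15.7% of 27457 promoters of the assembly searched in the same way. Cpb2, the member with the largest fall at 10 mg/kg, had no promoter entry and was not searched. The window searched was longer than the sequences shown, since it also held bases just after the start. All matches in these genes lay before the start, while the shares over the assembly count matches on both sides. The C/EBP motif was found in F9, Klkb1 and Serpinc1, 3 of 9, against 10.5% of promoters. The longer HNF4 core CAAAGTCCA was in 0 of the 9 and in 0.375% of promoters. A match is a run of letters and not a bound site, and genes that fell and genes that did not both carried matches. In the same annotation Klkb1 and F11 are direct neighbours on chromosome 16, as are F10 and F7.

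All 8 measured transcripts were bright, lying above the upper quartile of all probe sets on 40 of 40 arrays. The deposited log2 scale itself differed between dose groups. Against vehicle, the median log2 change over all 13438 genes was -0.03, 0.16 and 0.26 at the 3 doses from low to high, and quantile normalization made these 0.00, -0.01 and -0.02. Changes are therefore given on both scales, and the words rose and fell are kept for transcripts with a limma adjusted p under 0.05 in 1 direction on both. The 5 PPAR-alpha target genes used as a check of dosing (Acot1, Cyp4a1, Ehhadh, Cpt1b and Pdk4) rose at 1 and 10 mg/kg, 5 of 5 each, and 2 of 5 rose at 0.1 mg/kg. Poly-A control transcripts added to the RNA had mean log2 levels of 5.57, 5.84, 6.22 and 6.56 from vehicle to the highest dose. The difference between the 3′ and 5′ probe sets of beta-actin, a sign of RNA quality, had means of 2.78, 2.85, 3.11 and 3.22 in the same order. Both of these measures moved with dose, and their part in the results was not tested beyond the fits in which each was a covariate. A pair of arrays of the 0.1 mg/kg group (replicates 8 and 9) stood apart by a low upper quartile, and no member was called at that dose with or without them. At 10 mg/kg replicate 2 had an upper quartile of 4.89, against 5.07 to 5.13 in the other 9 arrays of the group, and without it Cpb2, Klkb1 and F9 still fell at that dose, with deposited log2 changes of -0.64, -0.51 and -0.42. The 1 mg/kg arrays split by their poly-A level, which was 5.25 to 5.70 in replicates 1 to 4 and 6.34 to 7.39 in replicates 5 to 10.

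At 10 mg/kg against vehicle, Cpb2, Klkb1 and F9 fell, 3 of the 8 measured members, and 0 of 8 rose. Over all genes 7.69% fell and 20.4% rose by the same rule. Cpb2 had the largest fall, by 36.8% as deposited and by 47.6% after quantile normalization. F5 was lower on both scales but passed only after quantile normalization, and F2, F10, F12 and Serpinc1 had calls that depended on the scale. The median log2 change of the 8 members was -0.17 as deposited, against 0.26 over all genes, and -0.44 after quantile normalization, against -0.02 over all genes. As deposited 3 members were lower and 2 higher, beside 7.69% and 56.5% of all genes, and after quantile normalization 7 were lower and 0 higher, beside 24.4% and 20.4%.

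**Figure D1:**
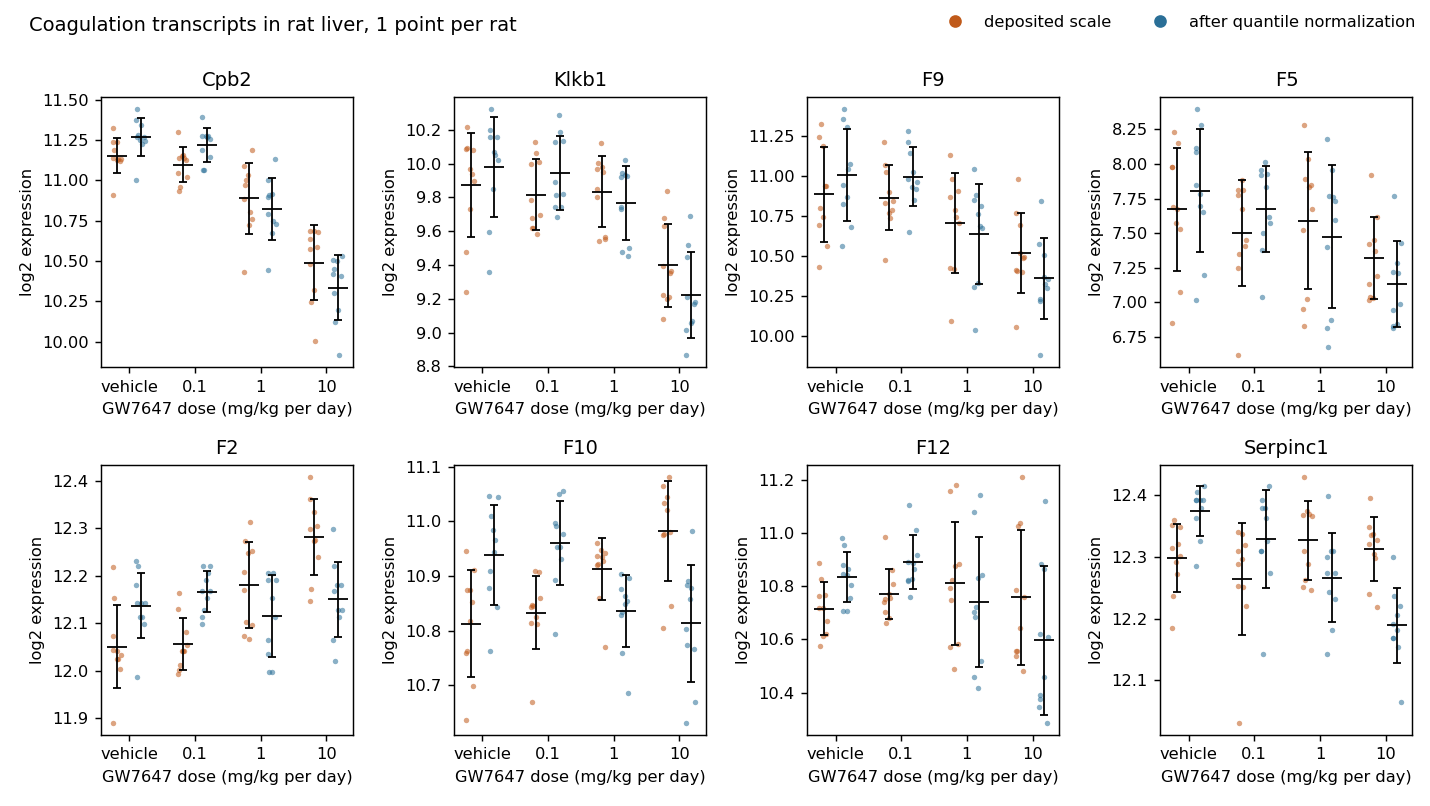
Log2 expression (vertical axis) of the 8 measured transcripts by daily GW7647 dose in mg/kg (horizontal axis), 1 point per rat, with the deposited scale in orange and quantile-normalized values in blue, and bars for the mean and SD of 10 rats. For Cpb2 at 10 mg/kg all 10 points lie below all 10 vehicle points on either scale, while the Serpinc1 groups overlap.

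Cpb2 removes terminal lysines from fibrin and so takes away the sites to which plasminogen binds. Its deposited log2 level at 10 mg/kg was 10.00 in the lowest rat, 10.58 in the median and 10.69 in the highest, against 10.91, 11.13 and 11.32 in vehicle rats. All 10 rats at 10 mg/kg were below every vehicle rat, as deposited and after quantile normalization. Groups that did not overlap in this direction were seen for 0.945% of all genes as deposited and 3.79% after quantile normalization. The group means were 10.49 ± 0.23 at 10 mg/kg and 11.15 ± 0.11 in vehicle rats (SD, n = 10 each). The log2 change was -0.66 (95% interval -0.82 to -0.50, limma adjusted p = 4.54e-09) as deposited and -0.93 (95% interval -1.08 to -0.79, adjusted p = 1.04e-13) after quantile normalization. Of all genes, 1.79% had a lower change as deposited.

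Cpb2 was also the only member that fell at 1 mg/kg, 1 of 8, beside 3.37% of all genes, and 0 of 8 rose, beside 11.1%. After quantile normalization alone 3 members were lower (Cpb2, F9 and Serpinc1), beside 12.1% of all genes. The deposited Cpb2 level at 1 mg/kg was 10.43 in the lowest rat, 10.93 in the median and 11.19 in the highest, and 5 of 10 rats were below every vehicle rat. The log2 change at 1 mg/kg was -0.26 (adjusted p = 0.00749) as deposited and -0.44 (adjusted p = 1.73e-05) after quantile normalization. From 0.1 to 1 mg/kg Cpb2 fell as well, with a log2 change of -0.21 as deposited (adjusted p = 0.0302) and -0.39 after quantile normalization (adjusted p = 0.000113), again the only member of 8, beside 2.95% of all genes. The deposited call of that step was lost without replicate 1 at 0.1 mg/kg (adjusted p = 0.0594), without replicate 3, 7 or 10 at 1 mg/kg (adjusted p = 0.0521, 0.0555 and 0.0832), and with the beta-actin difference as a covariate (log2 change -0.15, adjusted p = 0.0792). From 1 to 10 mg/kg the log2 change was -0.40 (adjusted p = 0.000218) as deposited and -0.49 (adjusted p = 3.91e-06) after quantile normalization.

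Klkb1 encodes plasma prekallikrein, which activates factor XII and frees bradykinin from kininogen. Its deposited log2 level at 10 mg/kg was 9.08 in the lowest rat, 9.36 in the median and 9.84 in the highest, against 9.24, 9.95 and 10.22 in vehicle rats. The groups overlapped, with 4 of 10 rats at 10 mg/kg below every vehicle rat as deposited and 7 of 10 after quantile normalization. The group means were 9.40 ± 0.24 at 10 mg/kg and 9.87 ± 0.31 in vehicle rats (SD, n = 10 each). The log2 change was -0.47 (adjusted p = 0.000246) as deposited and -0.76 (adjusted p = 3.78e-07) after quantile normalization. At 1 mg/kg its log2 change was -0.04 as deposited (adjusted p = 0.80, 95% interval -0.26 to 0.18) and -0.21 after quantile normalization (adjusted p = 0.158), and it did not pass. The step from 1 to 10 mg/kg did pass, with log2 changes of -0.44 (adjusted p = 0.00214) and -0.54 (adjusted p = 0.000343), so that 2 of 8 members, Cpb2 and Klkb1, fell at that step, beside 5.98% of all genes.

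F12, the partner of prekallikrein in the contact system, had widely spread values at the higher doses. Its deposited log2 level at 10 mg/kg was 10.48 in the lowest rat, 10.70 in the median and 11.21 in the highest, against 10.57, 10.72 and 10.89 in vehicle rats. At 10 mg/kg 4 of 10 rats were below every vehicle rat and 3 of 10 above every vehicle rat. The SD was 0.25 at 10 mg/kg and 0.10 in vehicle rats, and this difference in spread was not tested. The log2 change was 0.04 (adjusted p = 0.664, 95% interval -0.13 to 0.21) as deposited and -0.24 (adjusted p = 0.0263) after quantile normalization. The quantile-normalized call was lost without replicate 1, 5, 8 or 9 at 10 mg/kg (adjusted p = 0.0548, 0.0512, 0.0524 and 0.0602).

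F9 encodes factor IX, the protease that with factor VIII activates factor X. Its deposited log2 level at 10 mg/kg was 10.05 in the lowest rat, 10.49 in the median and 10.98 in the highest, against 10.43, 10.87 and 11.33 in vehicle rats. The groups overlapped, with 4 of 10 rats at 10 mg/kg below every vehicle rat as deposited and 8 of 10 after quantile normalization. The log2 change was -0.37 (adjusted p = 0.00667) as deposited and -0.65 (adjusted p = 1.49e-05) after quantile normalization. At 1 mg/kg it was -0.18 (adjusted p = 0.220) as deposited and -0.37 (adjusted p = 0.0169) after quantile normalization. With the poly-A controls as a covariate the quantile-normalized value at 1 mg/kg was -0.22 (adjusted p = 0.220). With replicates 1 to 4 as the only 1 mg/kg arrays, those with the low poly-A levels, it was -0.19 (adjusted p = 0.413). As deposited, F9 averaged 10.89 in replicates 1 to 4 and 10.58 in replicates 5 to 10 at 1 mg/kg, and 10.89 in vehicle rats. Across rats of a group, F9 and the poly-A level had a Pearson r of -0.42 over 40 arrays, given as a description.

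In the common part of the cascade no member rose or fell on both scales. F5, the cofactor of activated factor X, had a deposited log2 level at 10 mg/kg of 7.02 in the lowest rat, 7.28 in the median and 7.92 in the highest, against 6.85, 7.68 and 8.23 in vehicle rats. It was the most variable member, with an SD of 0.29 at 10 mg/kg and 0.45 in vehicle rats. Its log2 change was -0.35 (adjusted p = 0.0774, 95% interval -0.71 to 0.00) as deposited and -0.67 (adjusted p = 0.00160) after quantile normalization. As deposited, F5 passed without vehicle replicate 1 (adjusted p = 0.0238), without vehicle replicate 3 (adjusted p = 0.0385) and without replicate 2 at 10 mg/kg (adjusted p = 0.0379), the array of that group with the low upper quartile. F5 followed the beta-actin difference across rats of a group (r = 0.60 over 40 arrays), and with that difference as a covariate its deposited log2 change was -0.60 (adjusted p = 0.00125). With the poly-A controls as a covariate the quantile-normalized log2 change was -0.52 (adjusted p = 0.0640).

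F10 and F2 encode the last proteases before the clot. F10 had a deposited log2 level at 10 mg/kg of 10.80 in the lowest rat, 11.001 in the median and 11.08 in the highest, against 10.64, 10.83 and 10.95 in vehicle rats. Its log2 change was 0.17 (adjusted p = 0.00107) as deposited and -0.13 (adjusted p = 0.0257) after quantile normalization, so the direction turned with the scale. The quantile-normalized call was lost without vehicle replicate 3 (adjusted p = 0.0506) and without replicate 1 or 3 at 10 mg/kg (adjusted p = 0.0612 and 0.0565).

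F2 had a deposited log2 level at 10 mg/kg of 12.15 in the lowest rat, 12.29 in the median and 12.41 in the highest, against 11.89, 12.04 and 12.22 in vehicle rats. As deposited, 8 of 10 rats at 10 mg/kg were above every vehicle rat, and after quantile normalization 1 of 10 was. Its log2 change was 0.23 (adjusted p = 2.29e-05) as deposited and 0.01 (adjusted p = 0.821, 95% interval -0.07 to 0.10) after quantile normalization. At 1 mg/kg F2 was the 1 member higher as deposited (0.13, adjusted p = 0.0163), where 38.2% of all genes were higher, and its quantile-normalized change was -0.02 (adjusted p = 0.753).

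Serpinc1, which encodes antithrombin, had a deposited log2 level at 10 mg/kg of 12.22 in the lowest rat, 12.32 in the median and 12.40 in the highest, against 12.19, 12.31 and 12.36 in vehicle rats. The groups lay over each other on this scale, and after quantile normalization 9 of 10 rats at 10 mg/kg were below every vehicle rat. Its log2 change was 0.01 (adjusted p = 0.761, 95% interval -0.07 to 0.10) as deposited and -0.18 (adjusted p = 0.000185) after quantile normalization. The quantile-normalized change at 1 mg/kg was -0.11 (adjusted p = 0.0423). That call was lost when any 1 of 13 arrays was left out, 7 of the vehicle group (replicates 2, 3, 4, 5, 6, 8 and 9) and 6 of the 1 mg/kg group (replicates 2, 3, 5, 7, 9 and 10), with adjusted p between 0.0526 and 0.0858.

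**Figure D2:**
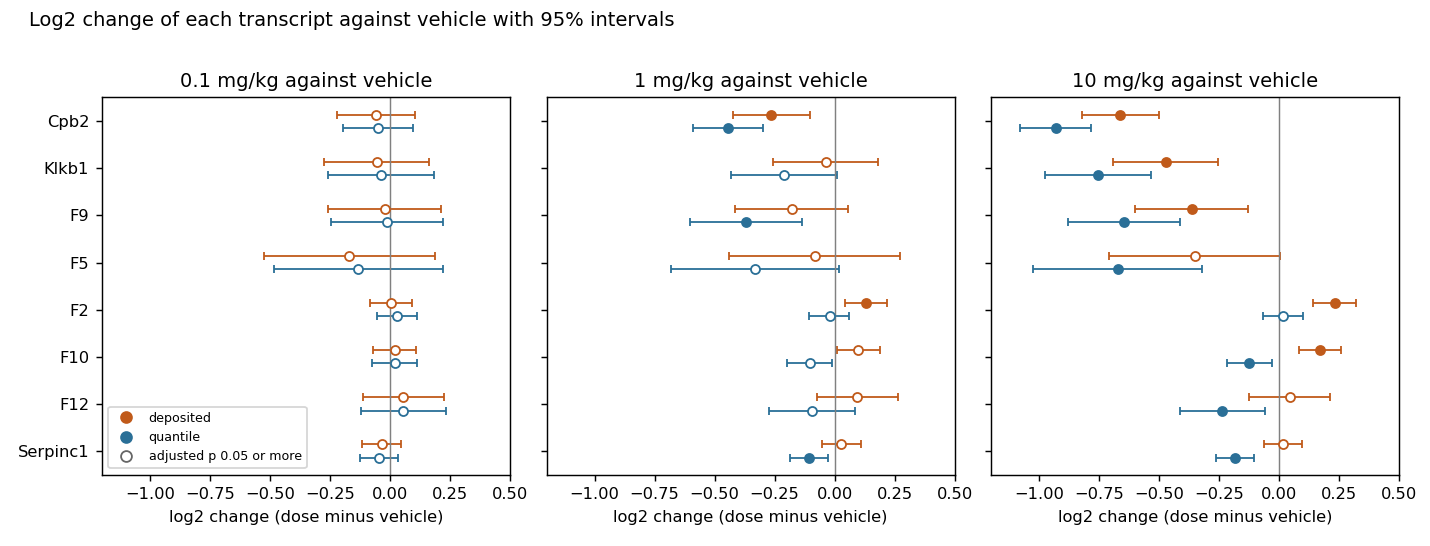
Log2 change (dose minus vehicle, horizontal axis) of the 8 transcripts at 0.1, 1 and 10 mg/kg with 95% intervals from the limma fit, deposited values in orange and quantile-normalized values in blue, filled where the adjusted p was under 0.05. At 10 mg/kg Cpb2 lies at -0.66 and -0.93, and F2 lies at 0.23 and 0.01.

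At 0.1 mg/kg 0 of 8 members rose or fell in the limma fit, beside 0.0819% and 0.00744% of all genes. The lowest unadjusted p among the members was 0.258, for Serpinc1 after quantile normalization, and Cpb2 had a log2 change of -0.06 (95% interval -0.22 to 0.10) as deposited. Over the whole course of doses the limma F test passed for 5 of 8 members as deposited (F2, F9, F10, Klkb1 and Cpb2), beside 71% of all genes, and for 7 of 8 after quantile normalization (all but F2), beside 47.9%. Of the deposited group means, Cpb2 read 11.15, 11.10, 10.89 and 10.49 from vehicle to the highest dose, while Klkb1 read 9.87, 9.82, 9.83 and 9.40. By these calls Cpb2 differed between 0.1 and 1 mg/kg and again between 1 and 10 mg/kg, and Klkb1 passed only at the last step. The deposited call of the first Cpb2 step was lost in 6 of 35 alternatives. After quantile normalization Klkb1 at 1 mg/kg averaged 9.66 in replicates 1 to 4 and 9.83 in replicates 5 to 10, against 9.98 in vehicle rats. With replicates 1 to 4 as the only 1 mg/kg arrays, its last step was -0.44 (limma adjusted p = 0.0536) and did not pass, with fewer samples. Whether the dose courses of these transcripts differ from each other was not tested.

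The difference between 2 transcripts on the same array does not depend on a shift of the whole array. Only its change with dose can be read, since the level of the difference holds the properties of both probe sets. Cpb2 minus Serpinc1 averaged -1.82 ± 0.24 at 10 mg/kg and -1.14 ± 0.14 in vehicle rats (SD, n = 10 each), a change of -0.68 (SE 0.09), and 10 of 10 rats at 10 mg/kg lay below every vehicle rat. Against F2 the change of Cpb2 was -0.89 (SE 0.09). Klkb1 minus F12 changed by -0.52 (SE 0.16) and F9 minus F10 by -0.54 (SE 0.14), with 2 and 5 of 10 rats below every vehicle rat. F2 minus Serpinc1 changed by 0.22 (SE 0.03). F5 minus F10 changed by -0.52 (SE 0.19), although F5 did not pass on both scales, and 0 of 10 rats lay below every vehicle rat. Each pair sets 1 transcript against 1 other and not against the rest of the members, and no p is given since the pairs were chosen with results known.

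**Figure D3:**
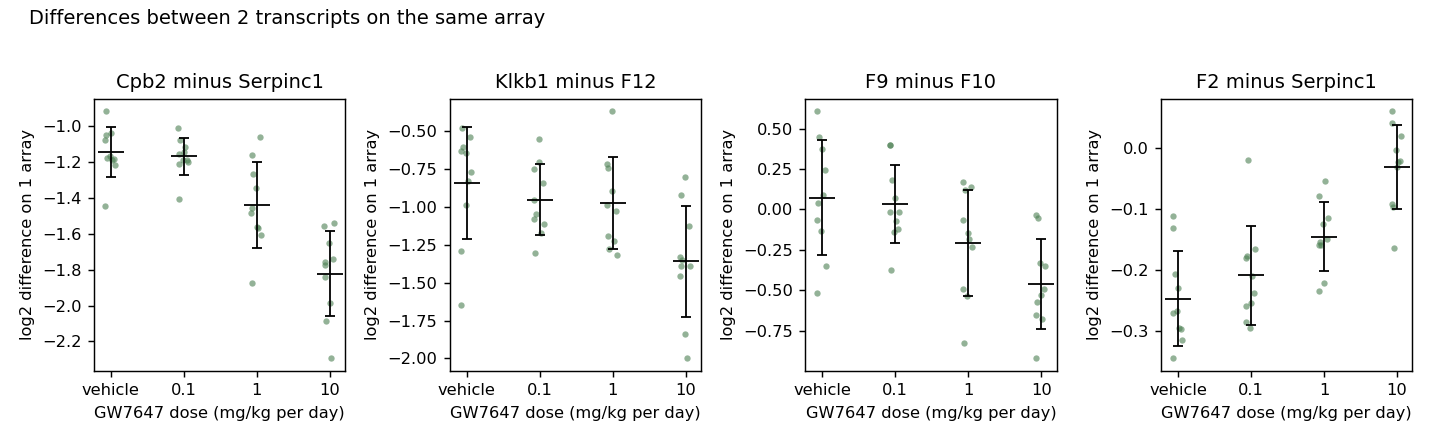
Log2 difference between 2 transcripts on the same array (vertical axis) by daily GW7647 dose in mg/kg (horizontal axis), 1 point per rat with the mean and SD of 10 rats. Cpb2 minus Serpinc1 averages -1.82 at 10 mg/kg and -1.14 in vehicle rats, and all 10 points at 10 mg/kg lie below all vehicle points.

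Of 33 other genes of clotting and fibrinolysis that were listed, 26 were measured. At 10 mg/kg 9 of the 26 fell, 3 rose and 14 did neither on both scales, where 7.69% of all genes fell and 20.4% rose. The median log2 change of the 26 was -0.05 as deposited, against 0.26 over all genes, and -0.23 after quantile normalization, against -0.02. At 1 mg/kg 3 of the 26 fell (A2m, Plau and F13a1) and 0 rose, beside 3.37% and 11.1% of all genes. At 0.1 mg/kg 0 did either, beside 0.00744% that fell and 0.0819% that rose. F13a1, which encodes the A chain of factor XIII, the enzyme that cross-links fibrin, read -0.25 as deposited and -0.34 after quantile normalization at 1 mg/kg, but 0.25 (adjusted p = 0.00790) and -0.02 (adjusted p = 0.888) at 10 mg/kg. From 1 to 10 mg/kg it rose by 0.49 (adjusted p = 1.32e-05) and 0.32 (adjusted p = 0.00434), at dim deposited means of 2.31 at 10 mg/kg and 1.81 at 1 mg/kg. A2m, a broad protease inhibitor of plasma, had the largest fall at 10 mg/kg, with log2 levels between 3.18 and 5.45 at 10 mg/kg against 5.56 and 7.55 in vehicle rats and a log2 change of -2.07 (adjusted p = 3.02e-07), and -2.34 after quantile normalization. Those groups did not overlap, which in this direction was so for 0.945% of all genes as deposited and 3.79% after quantile normalization.

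Some of the other falls lay in a kininogen, in an inhibitor of the contact system and in fibrinolysis. Kng2l1, a rat kininogen, fell, with a log2 change of -0.61 (adjusted p = 3.10e-05) and of -0.89 after quantile normalization. Another probe set of the gene read -0.21 (adjusted p = 0.166) as deposited and -0.48 (adjusted p = 0.00286) after quantile normalization. The kininogen genes Kng1 and Kng2 were listed but not measured. Serping1, the C1 inhibitor, which blocks activated factor XII and kallikrein, also fell, with log2 changes of -0.30 (adjusted p = 0.000172) as deposited and -0.58 quantile-normalized. Hrg, a plasma protein that binds heparin and plasminogen, fell, with log2 changes of -0.27 (adjusted p = 0.00266) and -0.49. Plasminogen (Plg), whose active form dissolves fibrin, fell, with log2 changes of -0.15 (adjusted p = 0.00570) and -0.41. The remaining falls were in Plau, Thbd, Serpina10 and Serpind1, named after their values were seen, with deposited log2 changes of -0.45, -0.37, -0.17 and -0.15. For Thbd the other 2 probe sets read 0.30 (adjusted p = 0.000824) and 0.11 (adjusted p = 0.311) on that scale, the first passing as higher. After quantile normalization they read 0.04 and -0.14 and did not pass. The other probe set of Plau read 0.08 (adjusted p = 0.334) as deposited and -0.19 (adjusted p = 0.0268) after quantile normalization at 10 mg/kg, and -0.05 (adjusted p = 0.615) and -0.15 (adjusted p = 0.137) at 1 mg/kg.

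Tfpi, the inhibitor of the tissue factor arm, rose by 0.65 as deposited (adjusted p = 0.000397) and by 0.38 quantile-normalized (adjusted p = 0.0363), yet its other probe set read -0.01 and -0.25, which did not pass. The other rises, F8 at 0.61 and 0.36 and Plaur at 0.52 and 0.25, were of dim probe sets with deposited means of 4.47 and 2.25 at 10 mg/kg and 3.85 and 1.73 in vehicle rats, and were named after their values were seen. F8 had 4 other probe sets, which differed. Of these, 1 also rose (0.52 and 0.28), 1 passed only as deposited (0.40 and 0.14), 1 passed on neither scale (0.16 and -0.09), and 1 read -0.05 as deposited and was lower after quantile normalization (-0.29, adjusted p = 0.00300). The brightest probe sets of the 3 fibrinogen chains did not pass as deposited, with log2 changes of -0.05 for Fga, 0.06 for Fgb and 0.05 for Fgg. After quantile normalization they were lower, at -0.22, -0.12 and -0.11 (adjusted p over all probe sets = 0.000408, 0.0323 and 0.0164). Another probe set of Fga fell, with log2 changes of -0.19 (adjusted p = 0.0437) and -0.44 (adjusted p = 2.82e-05). The other 2 of Fgb were higher as deposited, at 0.30 (adjusted p = 0.00182) and 0.29 (adjusted p = 0.000356), but read 0.04 and 0.01 after quantile normalization, so probe sets of 1 chain differed in their calls. Protein C (Proc) and protein S (Pros1), which together switch off factors V and VIII, read -0.09 and -0.07 as deposited (adjusted p = 0.124 and 0.496). After quantile normalization both were lower, at -0.37 and -0.39 (adjusted p over all probe sets = 2.07e-07 and 0.000179). The other probe set of Proc read 0.19 and -0.13 and did not pass.

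A separate list held 8 genes of the vitamin K cycle and of the processing and export of clotting factors, of which 7 were measured. At 10 mg/kg 4 of the 7 rose, 2 fell and 1 did neither on both scales, where 20.4% of all genes rose and 7.69% fell. The median log2 change of the 7 was 0.60 as deposited, against 0.26 over all genes, and 0.30 after quantile normalization, against -0.02. Vkorc1l1, a relative of the vitamin K epoxide reductase, rose by 1.02 (adjusted p = 3.18e-13) and 0.71. Its deposited log2 levels were between 7.05 and 7.50 at 10 mg/kg and between 5.98 and 6.59 in vehicle rats. Ggcx, the enzyme that carboxylates the vitamin K-dependent factors, rose by 0.60 (adjusted p = 6.33e-07) and 0.30. The proprotein proteases Furin and Pcsk7 rose by 0.69 and 0.63 as deposited and by 0.37 and 0.34 after quantile normalization. At 1 mg/kg Vkorc1l1, Ggcx and Furin had already risen, with deposited log2 changes of 0.64, 0.55 and 0.63. These were 3 of the 7, beside 11.1% of all genes, and 1 of the 7 (Lman1) fell, beside 3.37%.

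Lman1 and Mcfd2, the cargo receptor pair that carries factors V and VIII out of the endoplasmic reticulum, fell at 10 mg/kg. Lman1 changed by -0.76 (adjusted p = 1.46e-06) and -1.02, with a deposited mean of 4.32 at 10 mg/kg and 5.08 in vehicle rats. Mcfd2 changed by -0.43 (adjusted p = 0.000607) and -0.71. Vkorc1, the vitamin K epoxide reductase itself, read -0.04 (adjusted p = 0.633) as deposited and was lower after quantile normalization, at -0.33 (adjusted p over all probe sets = 0.000295).

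**Figure D4:**
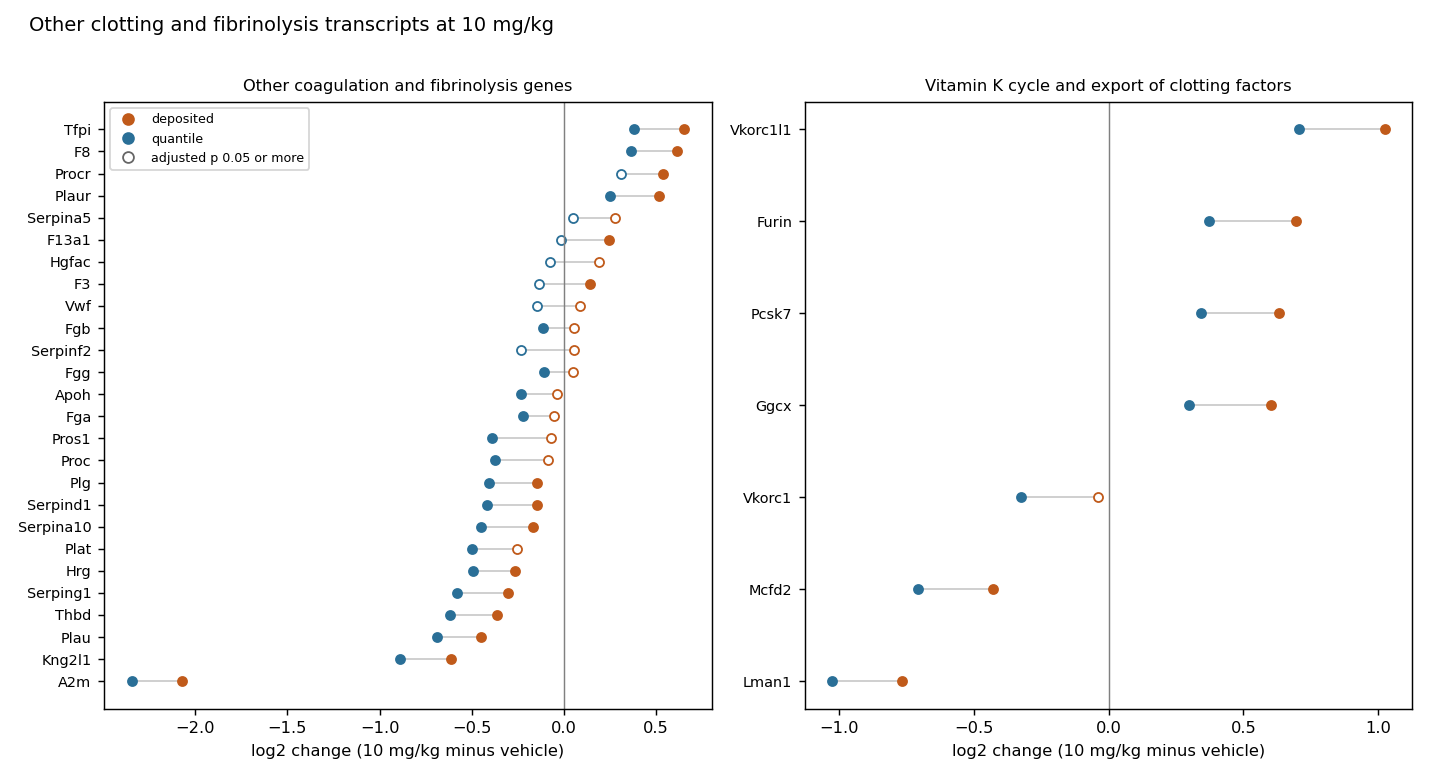
Log2 change at 10 mg/kg against vehicle (horizontal axis) of 26 other clotting and fibrinolysis genes (left) and 7 genes of the vitamin K cycle and of factor export (right), deposited values in orange and quantile-normalized values in blue, joined by a line and filled where the adjusted p was under 0.05. A2m is the lowest at -2.07 as deposited, and Vkorc1l1 is the highest of the second list at 1.02.

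Transcription factors that are known to act on liver-specific promoters were read beside the members. Of 13 measured, 1 rose and 1 fell at the highest dose, beside 20.4% and 7.69% of all genes. Their changes had a median of 0.45 as deposited, against 0.26 over all genes, and 0.21 after quantile normalization, against -0.02, in log2 units. The one that rose was Nr0b2, named after its values were seen, which encodes SHP, a nuclear receptor without a DNA-binding domain that represses other transcription factors. Its log2 change was 1.86 (adjusted p = 2.77e-05) as deposited and 1.55 (adjusted p = 0.000547) after quantile normalization. Hnf4a, a nuclear receptor that drives many clotting factor genes, fell on its brightest probe set, with log2 changes of -0.46 (adjusted p = 0.000796) as deposited and -0.74 quantile-normalized. Its other 2 probe sets read 0.01 and 0.38 as deposited and -0.26 and 0.09 after quantile normalization, and did not pass. Cebpa read 0.57 (adjusted p = 0.00356) as deposited and 0.32 (adjusted p = 0.119) after quantile normalization. Among 24 other secreted hepatocyte proteins 10 fell and 3 rose at the highest dose, beside the same 7.69% and 20.4% of all genes. Their median change was -0.07 as deposited and -0.23 after quantile normalization, in log2 units, against 0.26 and -0.02 over all genes. Albumin (Alb) averaged 13.50 ± 0.03 at 10 mg/kg and 13.52 ± 0.02 in vehicle rats (SD, n = 10 each). After quantile normalization every rat of both groups had the same Alb value, so that scale cannot show a change. Serpina1 averaged 12.85 at 10 mg/kg against 12.98 in vehicle rats as deposited, and 12.81 against 13.02 after quantile normalization. In the same order Ahsg read 12.46 against 12.48 and 12.38 against 12.56. Ttr read 12.80 against 12.81 and 12.73 against 12.85, and Apoa1 11.99 against 12.00 and 11.86 against 12.08.

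Markers of other liver cells were read at the same doses. Over all genes, 7.69% fell and 20.4% rose at 10 mg/kg, and 3.37% fell at 1 mg/kg. Of 9 macrophage markers measured, 8 fell at 10 mg/kg, while 4 fell at 1 mg/kg. Their mean log2 level per array ranged from 6.04 to 7.16 at 10 mg/kg and from 6.84 to 7.65 in vehicle rats. Of 8 endothelial markers 2 fell, and of 10 stellate cell markers 1 fell and 1 rose. Of 8 lymphocyte markers 0 rose or fell (limma), with list means per array from 2.27 to 2.47 at 10 mg/kg and from 2.11 to 2.48 in vehicle rats, and 7 of the 8 had a group mean under the array median at 10 mg/kg. Of 6 bile duct markers 1 fell and 2 rose, and of 5 erythroid and platelet markers 1 fell and 1 rose. In these lists 3 of the 6 and 2 of the 5 had a group mean under the array median at 10 mg/kg. None of the macrophage markers had a group mean under the array median, and the part of these cells in the members' changes was not tested.

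Within a dose group the members did not vary together as a block. Over the 28 pairs of members, the Pearson r of deviations from the group means, taken on quantile-normalized values of 40 arrays, had a median of 0.05. Over all 14287185 pairs of genes with a mean log2 level of 5 or more, the median was 0.01. Member pairs ranged from -0.78 to 0.69, and all pairs from -0.91 to 0.95. An r over 0.5 was seen for 2 of the 28 member pairs and for 636062 of all pairs. The pairs below are descriptions, since all values of 1 rat come from 1 array and share its RNA and its normalization. F12 and Cpb2 moved against each other, with r = -0.78 (Spearman -0.74, and r = -0.75 without the 2 rats farthest out on F12). Within the groups that r was -0.67, -0.34, -0.80 and -0.89 from vehicle to the highest dose. F10 and Cpb2 had r = -0.63, and F10 and F12 had r = 0.52. F5 and F9 had r = 0.69 (Spearman 0.58, and r = 0.60 without the 2 rats farthest out on F5), with 0.74, 0.31, 0.82 and 0.66 within the groups in that order. F12 and Cpb2 also followed the beta-actin difference in opposite directions, with r = 0.56 for F12 (Spearman 0.51, and r = 0.51 without the 2 rats farthest out) and r = -0.47 for Cpb2 (Spearman -0.30, and r = -0.29 without the 2 rats farthest out). The poly-A level had r = 0.13 with F12 and r = -0.28 with Cpb2.

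**Figure D5:**
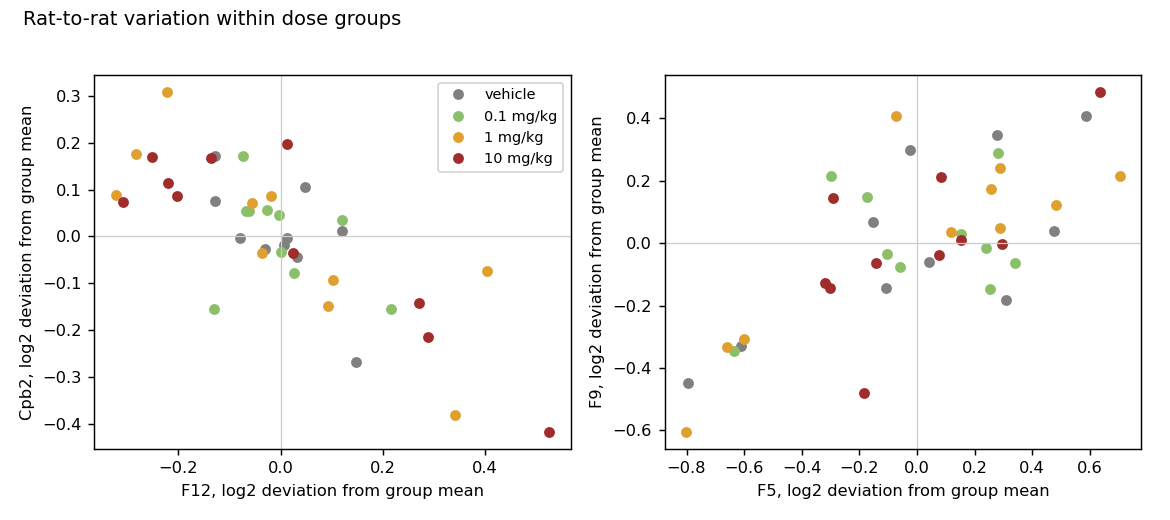
Log2 deviation of each rat from its dose group's mean after quantile normalization, for Cpb2 against F12 (left) and F9 against F5 (right), 1 point per rat coloured by dose. Rats high in F12 were low in Cpb2 (r = -0.78, 40 arrays), and rats high in F5 were high in F9 (r = 0.69).

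The genes most like Cpb2 from rat to rat, by the same r over 40 arrays among genes with a mean log2 level of 5 or more, were Papola (0.80), Cnbp (0.80), C1h6orf120 (0.80), Txndc15 (0.79) and Ctsc (0.79). Of these, only Ctsc fell at 10 mg/kg, with a log2 change of -0.69 (adjusted p = 8.17e-07) as deposited and -0.97 after quantile normalization. The other 4 had deposited log2 changes between -0.12 and 0.15, and did not pass on that scale. After quantile normalization 3 of these 4 were lower, Papola at -0.41 (adjusted p = 0.00457), C1h6orf120 at -0.41 (adjusted p = 0.0400) and Txndc15 at -0.34 (adjusted p = 0.00325), and Cnbp read -0.12 (adjusted p = 0.380).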

How the data were processed

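Total RNA from 40 rat livers, 4 groups of 10, was hybridised to 1 array each. The authors deposited log2 expression values per probe set, and the submitters' processing notes name Partek and GCRMA for them, without versions. GCRMA removes background that depends on probe sequence and puts 1 log2 value on each probe set. The platform annotation gave 1 symbol to 19069 of 31139 probe sets and several to 572, which were left unnamed, and 11498 more are unnamed here. Current symbols came from a RefSeq table of GRCr8, matched by Entrez number for 18989 probe sets. The probe set with the greatest mean over the arrays stood for its gene, which left 13438 genes, 3985 of them with several probe sets. Groups and doses came from the sample labels, which give a dose and a number, and each label was taken as a separate rat. Arrays have no read depth, and their number limits the precision.

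The deposited values were fitted with limma 3.58.1 (lmFit, eBayes, R 4.3.3) in 1 model of the 4 groups, and again after quantile normalization. Each dose was contrasted with vehicle, and each dose with the next lower one, two-sided, with Benjamini-Hochberg adjustment over all genes and a threshold of 0.05, and the script was tested on simulated data. Alternatives were other scalings, covariates, probe set rules, array weights, a replicate block and leaving out each array. Replicate numbers were not taken to pair the rats. The mean correlation of deviations between same-numbered rats of different groups was between 0.00 and 0.21 for the 6 pairs of groups. Not all pairs were over 0.1. Each mean was above that of rats with different numbers, but deviations within a group sum to 0, so this is no separate comparison. The highest mean for same-numbered rats was between 1 and 10 mg/kg, at 0.21, and what the numbers stand for was not tested. All members are named. Other clotting genes are named if they passed on both scales at 10 mg/kg with a group mean of log2 5 or more, up to 6 falls and 6 rises, besides Fga, Fgb, Fgg, Proc, Pros1, Plg, Hnf4a and Cebpa. The members, the lists and these rules were chosen with earlier results of these data known. Figures were drawn with matplotlib 3.10.9.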

Additional observations from a re-analysis of the deposited data

Results flagged for a closer look

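For each of the 8 transcripts, each dose group was checked for a rat that stood apart, by the gap to its nearest neighbour over the group's range (Dixon's ratio at its 95% critical value). Of 32 groups checked 5 were marked, where chance marks about 1 in 20. F5 read 6.6217 in replicate 8 at 0.1 mg/kg, one of the arrays with a low upper quartile, and the next rat read 7.25. F10 read 10.6703 in replicate 10 at 0.1 mg/kg, with the next at 10.81, and 10.77 in replicate 9 at 1 mg/kg, with the next at 10.86. Cpb2 read 10.9076 in replicate 1 of the vehicle group, with the next at 11.12, and this lowest vehicle rat was still above all 10 rats at 10 mg/kg. Serpinc1 read 12.032 in replicate 2 at 0.1 mg/kg, with the next at 12.22. All 5 were low values.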

How the results depend on the processing

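The falls of Cpb2, Klkb1 and F9 at 10 mg/kg kept their direction and stayed past the threshold in all 34 alternatives tried from the deposited scale and all 25 tried after quantile normalization, with log2 changes from -0.93 to -0.56 for Cpb2, -0.79 to -0.44 for Klkb1 and -0.65 to -0.31 for F9 in the first set. These alternatives are not independent checks, since 20 in each set left out 1 array. The 4 scalings all lowered the members' changes at 10 mg/kg, for F5 from -0.35 to between -0.67 and -0.41. A transcript lower as deposited was therefore likely to stay lower. Over all genes 1033 were lower as deposited and 1033 on both scales, so the second scale removed no falls at 10 mg/kg. The beta-actin covariate, and the block, the 2 low arrays, the single arrays and the separate probe sets after quantile normalization, were added after seeing the data.

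At 10 mg/kg the count of higher members, 2, became 0 with quantile normalization, a shared median, the hybridisation controls or quantile normalization with the poly-A covariate, and 1 with scaling to other secreted proteins. The count of lower members, 3, became 7 with quantile normalization, 5 with a shared median and 6 with the poly-A covariate. F5, not among those 3, passed as lower in 9 of the 34 alternatives tried from the deposited scale. Among these were the hybridisation controls (adjusted p = 0.0125), scaling to other secreted proteins (adjusted p = 0.0294), array weights (adjusted p = 0.00656), the beta-actin covariate and leaving out 1 of 3 single arrays. At 1 mg/kg 1 higher member became 0 with each of the 4 scalings, with the poly-A covariate and with 1 mg/kg arrays 1 to 4 (replicates 1 to 4, with low poly-A levels) alone, and 2 with array weights or a trended robust prior; 1 lower member became 3 with quantile normalization and 2 with a shared median or secreted proteins. The 3 lower after quantile normalization became 1 with the poly-A covariate or arrays 1 to 4.

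For the step from 0.1 to 1 mg/kg 1 higher became 0 with the 4 scalings, the poly-A covariate or arrays 1 to 4, and 1 lower became 3 with quantile normalization, 2 with the poly-A covariate and 0 with the hybridisation controls or the beta-actin covariate. The 3 lower after quantile normalization became 1 with arrays 1 to 4, and the 1 that fell on both scales became 0 with the beta-actin covariate. For the step from 1 to 10 mg/kg 0 higher became 2 with secreted proteins and 1 with array weights, a trended robust prior or the beta-actin covariate. With arrays 1 to 4 Klkb1 lost that step after quantile normalization, at -0.44 against -0.54 (adjusted p = 0.0536), with fewer samples, while F9 gained it at -0.46 (adjusted p = 0.0313), and also with the replicate block, at -0.28 (adjusted p = 0.0364). The dose course passed for 3 rather than 5 members with the hybridisation controls.

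Leaving out single arrays gave 1 to 2 higher at 1 mg/kg, 2 only without vehicle replicate 1 or 3 or replicate 9 at 1 mg/kg, 0 to 1 lower and 0 to 1 fallen on both scales at the step from 0.1 to 1 mg/kg, 1 to 3 lower at that step after quantile normalization (1 only without replicate 8 at 1 mg/kg), and 0 to 1 higher at the step from 1 to 10 mg/kg (F2, without replicate 4 at 1 mg/kg or replicate 1 at 10 mg/kg). The replicate block left 2 higher and 3 lower at 10 mg/kg and 1 lower at 1 mg/kg; after quantile normalization it left 7 lower at 10 mg/kg and 2 at 1 mg/kg, where Serpinc1 had adjusted p = 0.0550.

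Among changes past the threshold as deposited, signs turned for F2 and F10. F2 at 1 mg/kg read -0.0214 with quantile normalization, -0.0404 with the hybridisation controls and -0.0205 with the poly-A covariate, and at 10 mg/kg -0.0078 with a shared median and -0.0029 with the hybridisation controls. F2 from 0.1 to 1 mg/kg read -0.0511 with quantile normalization, -0.0056 with a shared median, -0.005 with the hybridisation controls, -0.0505 with the poly-A covariate and -0.0205 with arrays 1 to 4. F10 at 10 mg/kg read -0.13 with quantile normalization, -0.0689 with a shared median, -0.0639 with the hybridisation controls and -0.18 with the poly-A covariate. Deposited changes that did not pass also turned with quantile normalization. At 10 mg/kg F12 read 0.04 and -0.24 and Serpinc1 0.01 and -0.18, both passing as lower on the second scale. F10 at 1 mg/kg read 0.10 and -0.10, F12 0.09 and -0.09, and Serpinc1 0.03 and -0.11, of which Serpinc1 passed as lower. From 0.1 to 1 mg/kg F5, F10, F12, Klkb1 and Serpinc1 turned, and from 1 to 10 mg/kg F10 did. The cause of these turns was not tested.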
